A study of Mus musculus with 12 samples.

Results

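The genes described here are 10 keratins of stratified epithelium: Krt5, Krt14 and Krt15 of the basal layer, Krt1, Krt10, Krt2 and Krt77 of the suprabasal layers, Krt4 and Krt13, best known from the lining of the mouth and oesophagus, and Krt24. They were chosen by symbol, and each had 1 row among the 56691 genes of the deposited table. RNA was sequenced from the ears of wild-type mice in 3 groups of 4 libraries. The Blank mice were untreated, the Model mice received MC903, a vitamin D analogue that inflames mouse skin and is used to model eczema, and the IsoL mice received isoliensinine, a plant alkaloid. For the IsoL libraries the labels name isoliensinine alone, and the sources used here do not give strain, age, doses or times. No vehicle is named for Blank, so applying a substance and MC903 itself cannot be told apart. The labels do not tie libraries to separate animals, so every p-value rests on library-to-library spread, which may be technical.

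Keratins are the intermediate filaments of epithelial cells and work in pairs, 1 acidic type I chain with 1 basic type II chain. Basal keratinocytes build their filaments from Krt5 and Krt14. As cells leave the basal layer they switch to Krt1 and Krt10, and the upper layers add Krt2, which is abundant in the skin of the mouse ear. Type I chains are Krt10, Krt13, Krt14, Krt15 and Krt24, and type II chains are Krt1, Krt2, Krt4, Krt5 and Krt77. The type I members lay on chromosome 11 and the type II members on chromosome 15 of the deposited table. The sources used here do not give its genome build.

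Libraries held 13884927 to 18771831 counts, and the 10 keratins took 2.47% to 2.64% of those of Blank, 1.16% to 1.41% of those of Model and 2.54% to 2.90% of those of IsoL. Levels below are the deposited FPKM values, counts scaled to the exonic length of the gene and to the total count of the library. Changes are log2 fold changes from edgeR with TMM scaling, tested on the counts of the 15403 genes that reached an FPKM of 1 in 4 or more libraries. Of the 10 keratins 9 passed that filter, and Krt13 did not. Some markers of other cells moved with the groups. The 6 leukocyte markers, none at 0, summed to an FPKM of 23.6 to 25.4 for Blank, 248 to 268 for Model and 94.99 to 117 for IsoL, and 5 skeletal muscle markers, none at 0, summed to 1367 to 1488, 648 to 765 and 581 to 924. Of the leukocyte markers 5 were called higher in Model and lower again in IsoL, and the T cell marker Cd3e was called in no comparison. Among the 5, Csf3r reached an FPKM of 1 in 0 Blank, 4 Model and 4 IsoL libraries. Its rise in Model therefore follows in part from the filter. Of 5 fibroblast markers 4 were called higher in Model than in Blank (3 higher and 1 lower without scaling factors) and 5 lower in IsoL than in Model. The 5 sebaceous gland markers summed to 167 to 173, 128 to 162 and 124 to 145. With TMM scaling 2 of these 5 were called lower in Model than in Blank and 2 lower in IsoL than in Blank. From Model to IsoL 1 was called lower. Elovl3 and Awat1, the most abundant of them, were called in no comparison. Beside these marker counts, 35.3% of all tested genes were called higher and 34.9% lower in Model than in Blank. In IsoL 25.2% of all tested genes were called lower than in Model and 34.0% lower than in Blank. In whole ears, fewer keratinocytes and less keratin RNA per keratinocyte cannot be told apart. The part of cell composition in the changes below was not tested.

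In untreated ears the order of the levels was Krt10, Krt2, Krt14, Krt5, Krt77, Krt1, Krt15, Krt24, Krt4 and Krt13. Each was apart from the next in all libraries except Krt4 and Krt13, whose values overlapped. Krt10 was the gene of rank 8 in every Blank library and Krt14 that of rank 12, so the ear samples carried the keratins that define epidermis. In Model the order became Krt14, Krt10, Krt1, Krt5, Krt2, Krt77, Krt15, Krt24, Krt4 and Krt13. There the ranges of Krt1 and Krt5, of Krt5 and Krt2, and of Krt77 and Krt15 overlapped. In IsoL the order was Krt14, Krt10, Krt1, Krt2, Krt5, Krt15, Krt77, Krt24, Krt4 and Krt13, and Krt1 overlapped Krt2 and Krt24 overlapped Krt4. The exonic length used for Krt1, 4415 bases, is 1.41 times its longest transcript in GENCODE M21, 3133 bases, so its FPKM may be low beside the other keratins. For the other 9 that factor was at most 1.10.

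**Figure D1:**
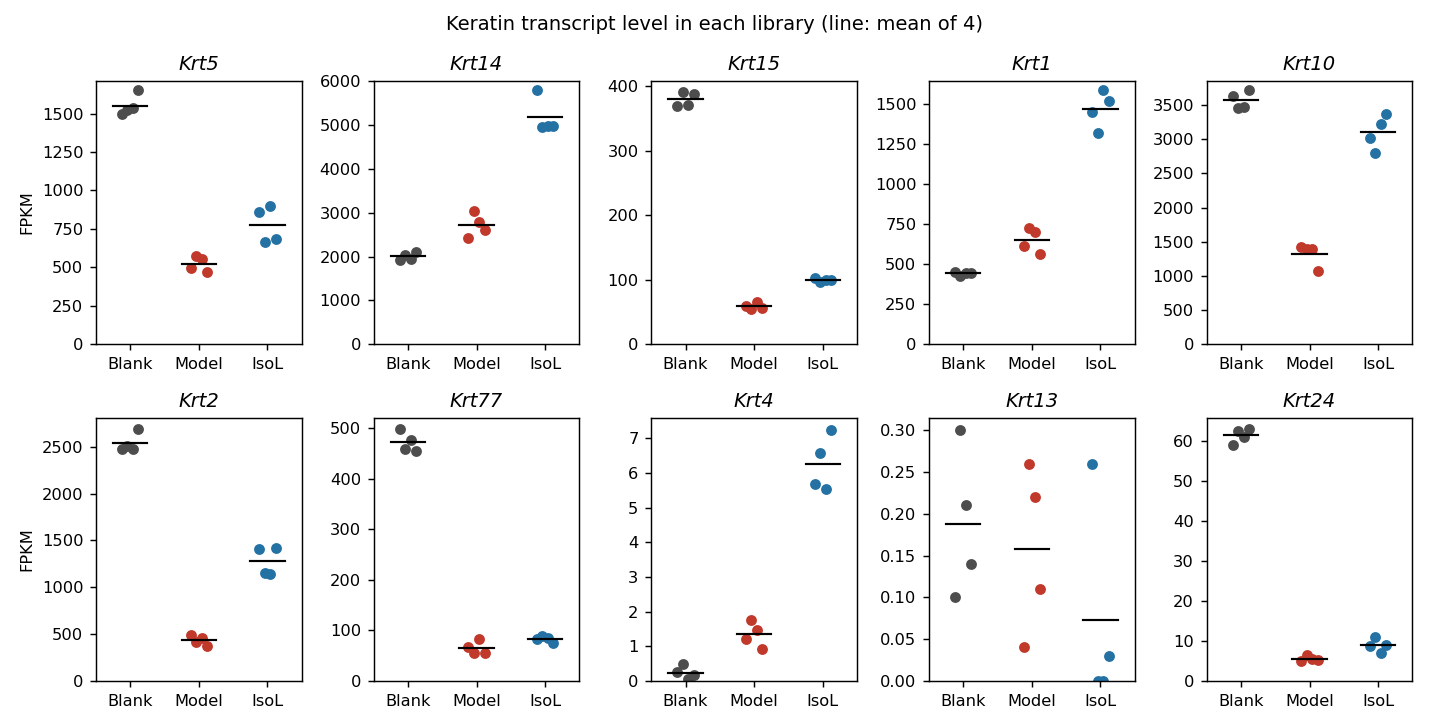
FPKM of each keratin (y axis, linear, from 0, a scale of its own in each panel) in the 4 Blank, 4 Model and 4 IsoL libraries (x axis); points are libraries and lines are means. Krt5, Krt15, Krt10, Krt2, Krt77 and Krt24 lie lower in Model than in Blank, whereas Krt14, Krt1 and Krt4 lie higher and are highest in IsoL.

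The first comparison asks how keratins of MC903 ears differ from those of untreated ears. The keratins did not move as a block: Krt5, Krt15, Krt10, Krt2, Krt77 and Krt24 fell and Krt14, Krt1 and Krt4 rose. Krt5 was lower and its partner Krt14 higher, and Krt10 was lower and its partner Krt1 higher, whereas Krt2 fell together with its partner Krt10 and Krt15 together with Krt5. All 9 tested keratins were called at an adjusted p under 0.05, where 70.1% of all tested genes were called, 35.3% higher and 34.9% lower, so the count alone does not set them apart. The median of the 9 changes was -1.43, against -0.01 over all tested genes.

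Isoliensinine ears were then set against MC903 ears. Every tested keratin was higher in IsoL, with 9 of 9 rising where 24.1% of all tested genes rose, 25.2% fell and 49.3% were called in either direction. The median change was 0.99, against 0.01 over all genes. The sizes differed: Krt4 and Krt2 rose by 2.26 and 1.62 on the log2 scale and Krt77 by 0.41. Krt4 passed the filter only through 7 Model and IsoL libraries, where it was higher than in Blank. Its place in the counts of this and the other comparisons therefore follows in part from the filter. This comparison shares its Model libraries with the first, so a Model library that is low by chance raises a fall in one and a rise in the other.

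The third comparison sets isoliensinine ears against untreated ears and shares libraries with both others. Krt14, Krt1 and Krt4 were higher in IsoL, Krt5, Krt15, Krt2, Krt77 and Krt24 were lower, and Krt10 did not pass the test. These 8 calls of 9 stand beside 70.5% of all tested genes called, 36.5% higher and 34.0% lower. In percent of the Blank mean FPKM, Krt77 stood at 13.8% in Model and 17.6% in IsoL, Krt24 at 8.99% and 14.5%, and Krt15 at 15.6% and 26.3%. Krt5 stood at 33.8% and 49.995%, Krt2 at 17.0% and 50.4% and Krt10 at 36.9% and 86.9%. Krt14 stood at 135% and 258%, and Krt1 at 147% and 331%.

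**Figure D2:**
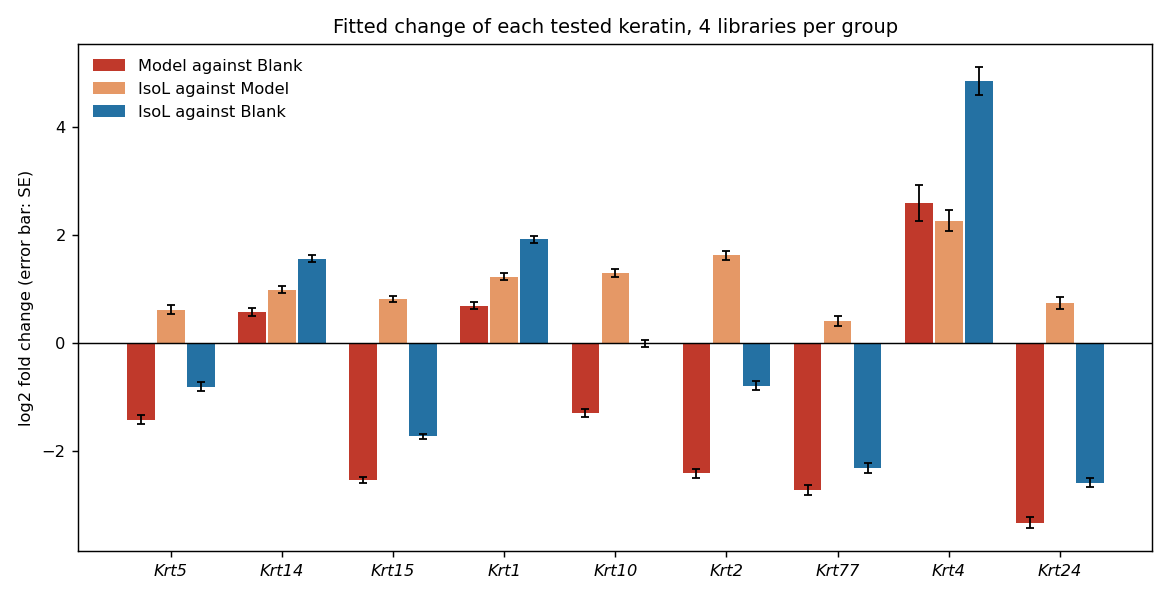
Fitted log2 fold change (y axis) of the 9 tested keratins (x axis) in each of the 3 comparisons, with 4 libraries per group; bars start at 0 and error bars are SE. Bars for Model against Blank point down for 6 keratins and up for Krt14, Krt1 and Krt4, and all bars for IsoL against Model point up.

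Among the basal keratins, Krt5 (ENSMUSG00000061527, chromosome 15, 101615505 to 101621333, minus strand) is the type II chain of the basal layer. Its FPKM was 1499, 1519.7, 1533 and 1652 in the Blank libraries, 497, 577, 551 and 472 in the Model libraries, and 861, 663, 897 and 681 in the IsoL libraries. The 3 groups did not overlap, and the IsoL values sat between the other groups. Krt5 fell by 1.43 ± 0.08 (SE, n = 4 per group, adjusted p = 5.7e-13) from Blank to Model, a 2.69-fold difference. It was 0.62 ± 0.08 higher in IsoL than in Model (adjusted p = 1.2e-06) and remained 1.75-fold lower than in Blank.

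Krt14 (ENSMUSG00000045545, chromosome 11, 100093988 to 100098374, minus strand) is the type I partner of Krt5. Its FPKM was 1917, 2026, 1955 and 2111 in the Blank libraries, 2415, 3028, 2785 and 2612 in the Model libraries, and 5807, 4945, 4973 and 4972 in the IsoL libraries. The groups stood apart in a rising order. Krt14 rose 1.49-fold from Blank to Model (0.57 ± 0.07, adjusted p = 1.4e-07) and 1.98-fold from Model to IsoL (0.99 ± 0.07, adjusted p = 5.3e-11). In IsoL it was the gene of rank 4 or 5 in every library.

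Krt5 and Krt14 share transcript sequence with stress keratins, the keratins that wounded or inflamed epidermis switches on. Of the 50-base words of the GENCODE M21 transcripts of Krt14, 13.9% also occur in another gene, 11.01% in Krt16. For Krt5 the share was 12.2%, with 6.98% in Krt6a. Krt16 itself went from 26.4 ± 5.84 FPKM in Blank to 1015 ± 125 in Model and 2395 ± 282 in IsoL (SD, n = 4), and Krt6a, Krt6b and Krt17 were called higher in Model and IsoL as well. The sources used here do not say how reads shared between genes were counted, so the levels of Krt14 and Krt5 carry that uncertainty. The part of shared reads in the rise of Krt14 was not tested.

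Krt15 (ENSMUSG00000054146, chromosome 11, 100022584 to 100026754, minus strand) is a second type I keratin of basal cells and a marker of hair follicle stem cells. Its FPKM was 369, 391, 371 and 387 in the Blank libraries, 60, 54.7, 65.5 and 56.1 in the Model libraries, and 103, 97.1, 99.6 and 99.3 in the IsoL libraries. From Blank to Model it moved against Krt14 although both are basal type I chains, whereas both rose from Model to IsoL. Krt15 fell 5.85-fold in Model (-2.55 ± 0.06, adjusted p = 1.4e-20), rose 1.76-fold from there in IsoL (0.81 ± 0.05, adjusted p = 2.4e-11) and stayed 3.33-fold below Blank.

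Of the suprabasal keratins, Krt10 (ENSMUSG00000019761, chromosome 11, 99276080 to 99280190, minus strand) is the type I chain of the spinous layer. Its FPKM was 3632, 3462, 3475 and 3719.5 in the Blank libraries, 1418, 1387, 1388 and 1075.5 in the Model libraries, and 3022, 2805, 3222 and 3363 in the IsoL libraries. Model libraries were far below both other groups. Krt10 fell 2.47-fold in Model (-1.30 ± 0.07, adjusted p = 5.0e-13) and rose 2.45-fold from Model to IsoL (1.29 ± 0.07, adjusted p = 2.1e-12).

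Between IsoL and Blank the answer for Krt10 depended on scaling. All 4 IsoL libraries had a lower FPKM than the 4 Blank libraries, yet with TMM factors the change was -0.01 ± 0.07 (adjusted p = 0.893). Without scaling factors it was -0.20 (adjusted p = 0.0158) and with TPM scaling -0.34 (adjusted p = 0.000241). These scalings moved the median change of all genes from 0.02 to -0.18 and -0.31, so relative to that median Krt10 stayed near it.

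Krt1 (ENSMUSG00000046834, chromosome 15, 101753861 to 101759229, minus strand) is the type II partner of Krt10. Its FPKM was 452, 427, 444 and 447 in the Blank libraries, 611, 726, 698 and 565 in the Model libraries, and 1447, 1314, 1583 and 1514 in the IsoL libraries. The groups did not overlap and rose in that order, as for Krt14. Krt1 rose 1.62-fold in Model (0.69 ± 0.07, adjusted p = 7.2e-09) and 2.34-fold from Model to IsoL (1.23 ± 0.07, adjusted p = 1.4e-12), which left it 3.78-fold above Blank.

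Krt2 (ENSMUSG00000064201, chromosome 15, 101719124 to 101726604, minus strand) is a type II keratin of the upper spinous and granular layers and pairs with Krt10. Its FPKM was 2476, 2508, 2474 and 2695 in the Blank libraries, 486, 421, 454 and 369.8 in the Model libraries, and 1404, 1152, 1140.1 and 1423 in the IsoL libraries. By mean FPKM it was the second most abundant of the 10 in untreated ears and the fifth in MC903 ears. Krt2 fell 5.34-fold in Model (-2.42 ± 0.09, adjusted p = 1.1e-16), rose 3.08-fold from there in IsoL (1.62 ± 0.08, adjusted p = 3.6e-13) and was 1.73-fold lower than in Blank.

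Krt77 (ENSMUSG00000067594, chromosome 15, 101767166 to 101778140, minus strand) is a type II keratin found in suprabasal epidermis of the mouse. Its FPKM was 498, 458, 476 and 455 in the Blank libraries, 66.6, 55.7, 82.8 and 54.9 in the Model libraries, and 83.1, 88.7, 85.4 and 74.6 in the IsoL libraries. Model and IsoL overlapped, because Model replicate 3 was above IsoL replicate 4. Krt77 fell 6.60-fold in Model (-2.72 ± 0.09, adjusted p = 6.3e-17), and its rise in IsoL over Model was 1.32-fold (0.41 ± 0.09, adjusted p = 0.000735). Without Model replicate 3 that rise was 1.46-fold. Of the 9 tested keratins, 8 did not overlap between IsoL and Model, where 42.6% of all tested genes did not, and Krt77 was the exception. All 9 were apart in the other comparisons, beside 69.5% of genes for Model against Blank and 66.1% for IsoL against Blank.

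The mucosal keratins were scarce throughout. Krt4 (ENSMUSG00000059668, chromosome 15, 101826970 to 101833170, minus strand), the type II keratin of oesophagus and mouth, had 9, 17, 2 and 6 counts in the Blank libraries, 36, 65, 48 and 30 in the Model libraries, and 228, 247, 195 and 288 in the IsoL libraries. Its FPKM was 0.06 to 0.49 across Blank libraries, 0.92 to 1.77 across Model libraries and 5.54 to 7.23 across IsoL libraries. The groups stood apart, but Krt4 passed the expression filter only through 7 Model and IsoL libraries, so its difference between groups follows in part from the filter. The fitted change was 2.59 ± 0.33 from Blank to Model (adjusted p = 3.5e-07) and 2.26 ± 0.19 from Model to IsoL (adjusted p = 1.8e-09), with 28.9-fold between IsoL and Blank. On the log2(FPKM + 1) scale of limma the Model change was 0.92, since that scale compresses low values.

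Krt13 (ENSMUSG00000044041, chromosome 11, 100008153 to 100012392, minus strand), the type I partner of Krt4 in mucosa, did not follow it. It had 3, 9, 6 and 4 counts in the Blank libraries, 1, 8, 6 and 3 in the Model libraries, and 9, 0, 0 and 1 in the IsoL libraries. The groups overlapped in every comparison. The ratio of Model to Blank was 0.867 (95% counting interval 0.438 to 1.69), with an exact two-sided permutation p of 0.657. The ratio of IsoL to Blank was 0.414 (0.175 to 0.912; exact permutation p = 0.2, adjusted over 3 comparisons p = 0.471), and IsoL replicate 1 held 9 of the 10 IsoL counts. Such intervals cover counting error only. Without IsoL replicate 1 the log2 ratio of IsoL to Blank went from -1.27 to -4.15 and that of IsoL to Model from -1.06 to -3.95, both with an exact permutation p of 0.0571, the smallest that 3 against 4 libraries allow, and with a single count left in IsoL.

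Krt24 (ENSMUSG00000020913, chromosome 11, 99170785 to 99176088, minus strand), a type I keratin that is assigned here to none of these layers, showed the largest fall of the 9 tested members in Model. Its FPKM was 59.1, 62.6, 61.1 and 63.0 in the Blank libraries, 4.95, 6.48, 5.46 and 5.22 in the Model libraries, and 8.62, 10.99, 6.96 and 9.10 in the IsoL libraries. All treated libraries lay far below the Blank libraries. Krt24 fell 10.05-fold in Model (-3.33 ± 0.10, adjusted p = 3.8e-18), which put it at percentile 0.123 of the changes of all tested genes. It rose 1.67-fold from Model to IsoL (0.74 ± 0.11, adjusted p = 8.9e-06).

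Ratios of keratins within a library do not depend on the scaling between libraries, and they show how the partner chains shifted. For each FPKM of Krt14 there was 0.775 ± 0.017 of Krt5 in Blank, 0.194 ± 0.011 in Model and 0.150 ± 0.021 in IsoL (mean ± SD, n = 4). The Blank ratios, 0.750 to 0.784, were far above those of Model, 0.181 to 0.206, and IsoL, 0.134 to 0.180. For each FPKM of Krt10 there was 0.124 ± 0.0031 of Krt1 in Blank, 0.496 ± 0.044 in Model and 0.472 ± 0.017 in IsoL. Here Model and IsoL overlapped and Blank lay below both. Krt2 to Krt10, the other suprabasal pair of a type II and a type I chain, went the opposite way, with 0.711 ± 0.020 in Blank, 0.329 ± 0.019 in Model and 0.413 ± 0.046 in IsoL.

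The other ratios moved with them. Krt15 to Krt14 was 0.184 to 0.193 across Blank libraries, 0.0181 to 0.0248 across Model libraries and 0.0178 to 0.0200 across IsoL libraries. Krt2 to Krt1 was 5.47 to 6.03 across Blank libraries, 0.580 to 0.794 across Model libraries and 0.720 to 0.970 across IsoL libraries, so Krt2 was the main suprabasal type II keratin in untreated ears and not in treated ones. Krt77 to Krt10 was 0.122 to 0.137 across Blank libraries, 0.0401 to 0.0596 across Model libraries and 0.0222 to 0.0316 across IsoL libraries, where it was lowest.

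Summed by layer, the 3 basal keratins had a median FPKM of 3898 in Blank, 3271 in Model and 5861 in IsoL. The 4 suprabasal keratins had 6963 in Blank, 2585 in Model and 5994 in IsoL. The suprabasal sum over the basal sum was 1.74 to 1.86 across Blank libraries, 0.658 to 0.869 across Model libraries and 0.880 to 1.11 across IsoL libraries, with no overlap between groups. Type II over type I chains, summed over the 10, was 0.824 to 0.840 across Blank libraries, 0.390 to 0.426 across Model libraries and 0.410 to 0.447 across IsoL libraries. Krt14, with a mean FPKM of 2710 in Model and 5174 in IsoL, made up most of the basal sum there. The suprabasal to basal ratio therefore carries the uncertainty from reads shared with stress keratins. Single pairs across the layers did not move alike. Krt10 to Krt14 had means of 1.79 in Blank, 0.489 in Model and 0.603 in IsoL. Krt1 to Krt5 went the opposite way, with 0.286, 1.24 and 1.91. The ratio of sums thus does not show a shift shared by all members of a layer. These sums and ratios are descriptions and were not tested.

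**Figure D3:**
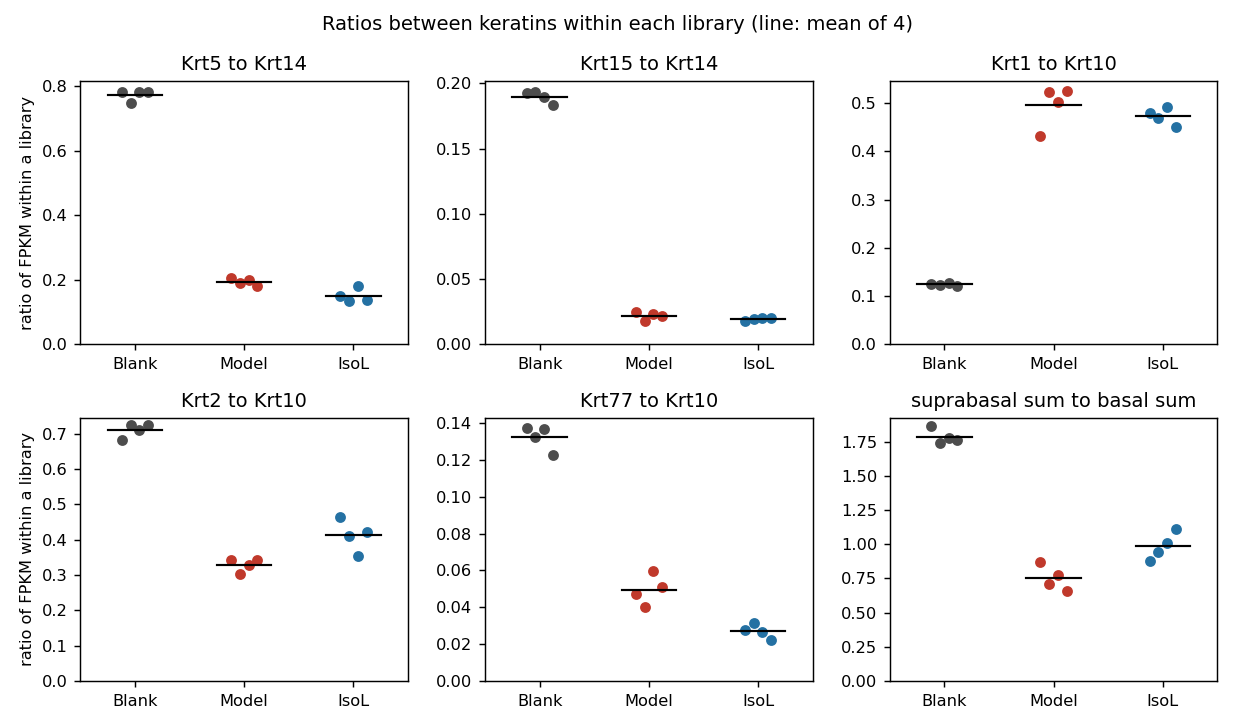
Ratio of 2 FPKM values, or of the summed FPKM of 4 suprabasal and 3 basal keratins, within each library (y axis, linear, from 0) for the 3 groups (x axis); points are libraries and lines are means of 4. Krt5 to Krt14, Krt15 to Krt14, Krt2 to Krt10, Krt77 to Krt10 and the suprabasal to basal sum are highest in Blank, and Krt1 to Krt10 is lowest there.

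Position in the genome did not group the members by direction. In the deposited coordinates Krt13 and Krt15 lay 10.2 kb apart with no other keratin gene between them, and Krt14 lay 67.2 kb beyond Krt15. Krt15 fell in Model while Krt14 rose. On chromosome 15, Krt2, Krt1 and Krt77 were consecutive keratin genes with gaps of 27.3 kb and 7.94 kb, and Krt1 rose between neighbours that fell. Krt24 and Krt10 were separated by 4 hair follicle keratin genes, Krt25 to Krt28, all of which rose in Model. Of the 18 tested keratin genes of chromosome 11, 13 rose and 4 fell in Model, and of the 20 on chromosome 15, 13 rose and 6 fell, beside 35.3% and 34.9% of all tested genes. In IsoL against Model 8 rose and 10 fell on chromosome 11, and 12 rose and 7 fell on chromosome 15, beside 24.1% and 25.2% of all genes. Among these genes, 9 hair follicle keratins reached the minimum FPKM of the filter in all libraries of Model and of no other group. The counts of both comparisons therefore follow in part from the filter, and the shares of all genes are no even measure for them.

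**Figure D4:**
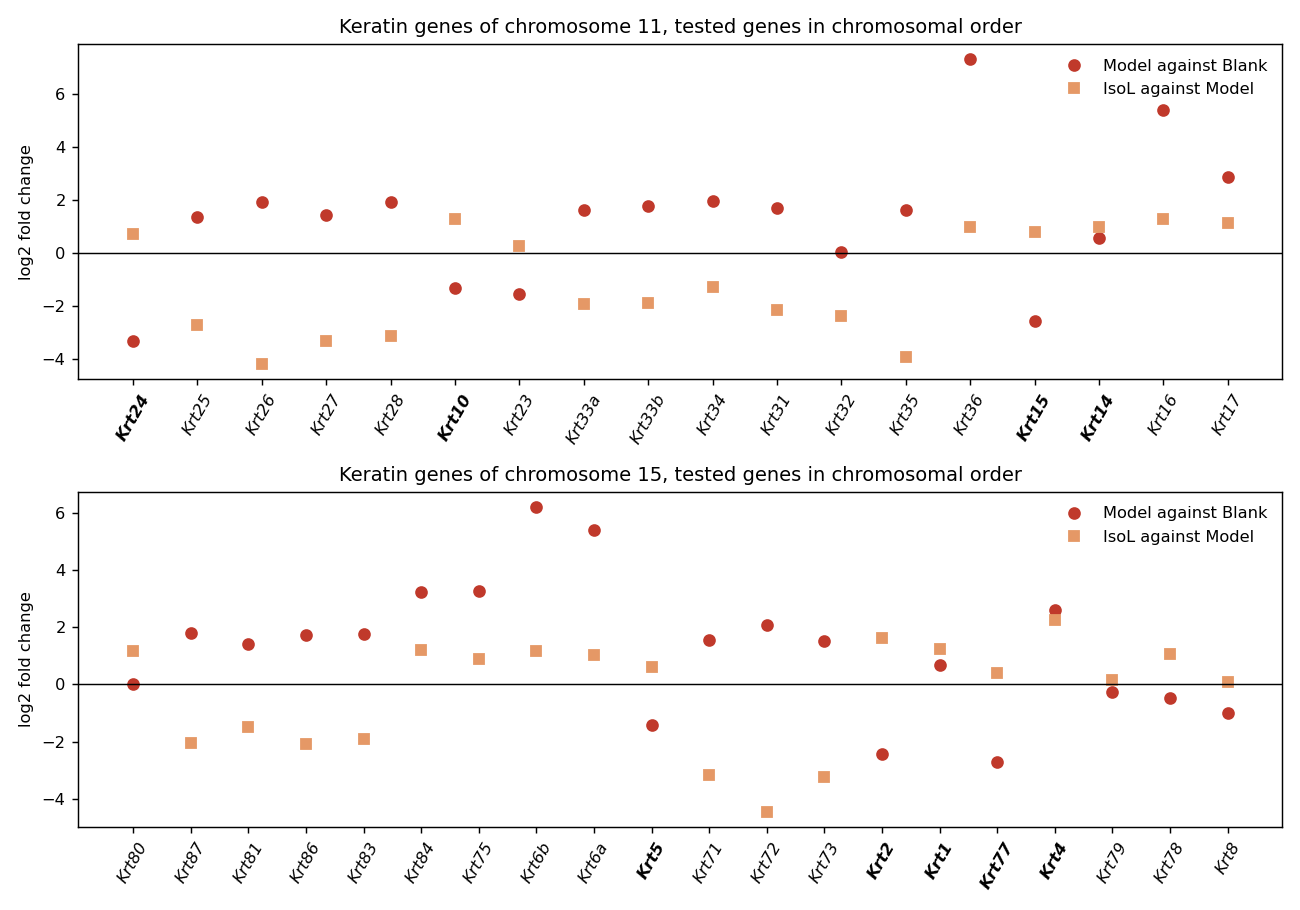
Fitted log2 fold change (y axis) of the tested keratin genes of chromosomes 11 and 15 in chromosomal order (x axis, not to scale; the 9 tested members in bold), for Model against Blank (circles) and IsoL against Model (squares). Krt15, Krt2 and Krt77 are below 0 in Model against Blank while Krt14, Krt1 and Krt4 are above 0.

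The sequence just before a RefSeq start of transcription is shown for Krt5, Krt14, Krt10 and Krt24. Krt5 and Krt14 are the basal partners that moved apart, and Krt10 and Krt24 fell together. Placed by the offset between the deposited and the GRCm38.p6 coordinates at Krt10 and Krt24, the start listed for Krt14 lies inside the gene. Its stretch is therefore not the sequence before the first base of Krt14. RefSeq on GRCm38.p6 held a promoter for 7 of the 10 members. The last 100 bases before the start are given 5′ to 3′ on the minus strand, at chr15:101712906-101713005 for Krt5, chr11:100206031-100206130 for Krt14, chr11:99389365-99389464 for Krt10 and chr11:99285263-99285362 for Krt24. Capitals mark the letters TATANA, taken here for the box of core promoters and searched only on the strand of the gene with the first base at -40 to -20.
Krt5: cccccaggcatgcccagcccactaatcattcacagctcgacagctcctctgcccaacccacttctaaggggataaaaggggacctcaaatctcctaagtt
Krt14: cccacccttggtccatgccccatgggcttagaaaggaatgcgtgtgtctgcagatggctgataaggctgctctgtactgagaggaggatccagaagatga
Krt10: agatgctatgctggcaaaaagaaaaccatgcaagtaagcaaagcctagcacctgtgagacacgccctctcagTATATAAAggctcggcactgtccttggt
Krt24: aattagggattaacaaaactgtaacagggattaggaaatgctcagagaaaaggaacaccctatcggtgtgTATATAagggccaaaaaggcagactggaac
Krt10, Krt24, Krt2 and Krt77 held the motif, each with its first base between -30 and -26, beside 3.11% of 32851 promoters. The windows of Krt5, Krt14 and Krt13 did not hold it. The Krt5 stretch has gataaa and a stretch of Krt13 has cataaa, which differ from TATANA only in the first letter. Since the Krt14 window lies inside the gene, the region before the first base of Krt14 was not searched. Krt13 also had another listed start that lies inside its gene by the same offset. The 4 keratins with the motif all fell in Model, but so did Krt5 without it, and no match says only that these letters are not in the window. The motif and its window were chosen after these sequences had been seen. TGANTCA, the AP-1 motif, which reads alike on both strands, occurred in the 250 bases before the starts of Krt13 and in 6.75% of all promoters. A match describes letters in a window and says nothing of factors bound there.

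Genes that work beside keratins were taken from lists chosen with earlier results of these data known. Of 10 further basal layer genes, 7 fell and 3 rose in Model, with a median of -0.79, beside 34.9% and 35.3% of all tested genes. Col17a1, a collagen that anchors basal cells, fell from 187 ± 8.27 to 40.7 ± 2.84 FPKM, a log2 change of -2.06 ± 0.06. Itgb4, an integrin of hemidesmosomes, fell by 1.17 ± 0.07, and the laminin chain Lama3 fell by 1.11 ± 0.06. In IsoL against Model 6 rose and 1, Itgb1, fell (median 0.30), beside 24.1% and 25.2% of all genes, and Col17a1 rose to 61.6 ± 5.64 FPKM. Their summed FPKM was 273 to 292 in Model and 269 to 285 in IsoL, but the sum of the 9 genes other than Itgb1 was 136 to 148 in Model and 168 to 189 in IsoL.

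Of 8 proteins that anchor keratin filaments to junctions, all 8 fell in Model (median -0.68), where 34.9% of all genes fell. The plakins Ppl, Dst and Dsp fell by 1.68 ± 0.06, 1.63 ± 0.05 and 0.87 ± 0.07. From Model to IsoL 6 rose (median 1.005), where 24.1% of all genes rose, led by Pkp1 (1.22 ± 0.06), Jup (1.19 ± 0.08) and Dsp (1.07 ± 0.07), all of desmosomes. Dst (0.04 ± 0.05) and Plec (0.04 ± 0.05), which link keratin to hemidesmosomes, did not pass the test. In IsoL against Blank 5 were higher and 3 lower, but without scaling factors 3 were higher.

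Of 19 regulators of epidermal differentiation, 14 fell and 4 rose in Model (median -0.46), beside 34.9% and 35.3% of all genes. Cebpb (2.26 ± 0.15), a transcription factor that myeloid cells also express, rose, and the Notch ligand Jag2 fell by 1.65 ± 0.06. From Model to IsoL 13 rose and 4 fell (median 0.44), with Zfp750, Klf4 and Grhl1, transcription factors of late differentiation, up by 0.95 ± 0.06, 0.88 ± 0.05 and 0.81 ± 0.07.

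All 4 stress keratins rose in Model and again from Model to IsoL, and their summed FPKM was 131 to 169 across Blank libraries, 2980.1 to 3782 across Model libraries and 6828 to 8427 across IsoL libraries. Of 19 tested hair follicle keratins 18 rose in Model, and from Model to IsoL 16 fell and 3 rose, namely Krt36, Krt75 and Krt84. Of these 19, 9 reached an FPKM of 1 in all 4 libraries of Model and of no other group, and 2 reached it in all 12 libraries, so the counts follow in part from the filter on low values. Of 3 tested keratins of epidermis outside the members, Krt78 (-0.48 ± 0.05) and Krt79 (-0.25 ± 0.07) fell in Model, and all 3, with Krt80, rose from Model to IsoL. The rise of Krt79 was 0.17 ± 0.07 (adjusted p = 0.0469), and 2 of the 3 were called with DESeq2 size factors, without scaling factors and with TPM scaling. Of the 2 tested simple epithelial keratins, both fell in Model, Krt23 by 1.54 ± 0.09 and Krt8 by 0.997 ± 0.246. Krt8 reached an FPKM of 1 in 4 Blank libraries, 0 Model libraries and 1 IsoL library, so its fall follows in part from the filter. Of 7 genes of mucosal squamous epithelium 2 were tested. Crnn rose by 1.84 ± 0.31 in Model and Mal fell by 0.45 ± 0.11, and Crnn fell by 2.06 ± 0.32 from Model to IsoL, the opposite of Krt4.

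Likeness to a member was measured as Pearson's r of TMM log2 CPM over the 12 libraries, among 7717 other genes. Most like Krt14 were Rnf223 (r = 0.996), Pla2g4f (r = 0.996), a phospholipase, and Hars (r = 0.993), a tRNA synthetase. Most like Krt10 were Lrrc28 (r = 0.991) and Iffo2 (r = 0.990). Most like Krt24 were Calm5 (r = 0.997), a calmodulin-like gene, Arl4a (r = 0.996) and Serpinb7 (r = 0.994), a serpin. Calm5 had a mean FPKM of 159 in Blank, 16.4 in Model and 27.2 in IsoL. With 3 separated groups many genes correlate highly, and r exceeded 0.95 for 370 genes with Krt14, 95 with Krt10 and 471 with Krt24. No value was computed for Krt13, which was below the filter.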

How the data were processed

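Poly-A RNA of mouse ears was sequenced in 12 libraries. Per the submitters' processing notes the tools were fastp 0.22.0, HISAT2 2.1.0 and HTSeq 0.9.1; the build, annotation, strand setting and treatment of multi-mapped reads are not given in the sources used here. The authors deposited raw read counts per gene and FPKM values, and 100% of the FPKM values in every library equalled counts scaled to the deposited exonic length and the total count, within 0.0051. No molecular identifiers are described.

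Groups came from the titles. Counts went into edgeR 4.0.16 (R 4.3.3), quasi-likelihood fit and test (TMM factors, 1 fit of 3 groups, two-sided, Benjamini-Hochberg over 15403 genes, called under 0.05); the SE is the log2 change over the square root of F. Krt13 was compared by an exact permutation test of CPM. Named genes are the 10 members, up to 3 called members of largest change per list and the most alike genes; some genes this rule selects are not reported here, and where fewer genes of a list went against the others, they were named after their values were seen. The members and lists were chosen with earlier results of these data known. Alternatives used DESeq2 1.42.0, limma 3.58.1 on log2(FPKM + 1) or log2(FPKM + 0.1), other scalings and filters, a replicate block, and leaving out each library. The edgeR, DESeq2 and limma fits were tested on simulated data. Libraries of a group differed by more than sampling noise.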

Additional observations from a re-analysis of the deposited data

Results flagged for a closer look

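In 5 of 63 groups of 4 values 1 library lay far from the others by Dixon's criterion, which chance gives in about 1 group in 20. Krt14 had an FPKM of 5807 in IsoL replicate 1, against 4945 to 4973 in the other IsoL libraries. Krt10 had 1075.5 in Model replicate 4, against 1387 to 1418, and that library was also the lowest of its group for Krt5, Krt1, Krt2, Krt77 and Krt4. Krt2 had 2695 in Blank replicate 4, against 2474 to 2508. Krt13 had 0.26 in IsoL replicate 1, against 0 to 0.03. The ratio of Krt5 to Krt14 was 0.750 in Blank replicate 2, against 0.782 to 0.784.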

How the results depend on the processing

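Each of the 27 keratin changes was recomputed under 23 alternatives, and 613 of 621 values kept their direction and side of the threshold. The 8 others all belong to Krt10 in IsoL against Blank (-0.01 with TMM). Its change was 0.0047 without a filter on low values, 0.0147 with filterByExpr and -0.0585 to 0.0328 with each library left out in turn (0.0081 without Blank replicate 4, 0.0328 without IsoL replicate 2), and it was called lower with the unscaled and TPM fits given above and in limma on log2(FPKM + 1) and log2(FPKM + 0.1) (both -0.21). The log2 ratio of Krt13 between Model and Blank, -0.21, was -0.58 to 0.14 with each library left out (0.14 without Blank replicate 2, 0.08 without Model replicate 1); at 0 to 9 counts per library a difference was not detectable. The number of keratins called was 9 of 9 for Model against Blank and IsoL against Model under every alternative and 8 or 9 for IsoL against Blank. All genes called ranged from 10362 to 13282, 6899 to 8359 and 10435 to 12879. TPM scaling was added after seeing the data. It moved the median of all genes in Model against Blank from -0.01 to -0.24 and the share of rises among calls from 50.3% to 32.5% (49.0% to 33.2% in IsoL against Model and 51.8% to 27.3% in IsoL against Blank); Krt14 then rose by 0.34 and Krt1 by 0.46 in Model. Same-numbered libraries did not deviate together (r from -0.13 to 0.03 over 12 same-numbered pairs, of which 1 was the best match), so numbers were not taken as pairs; with the replicate block 10737, 7474 and 10800 genes were called and no keratin call changed.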
